A study of Mus musculus with 33 samples.

Results

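The 10 mouse genes, Pcdh8, Adra1a, Rbm24, Klhdc8a, Prune2, Crb2, Man1a, Naaa, Pam and Serinc5, are described here across the whole embryonic kidney in Six2 wild-type, heterozygous and knockout mice. They are 10 of 35349 gene symbols counted. They were chosen by their own measured values, as genes higher in heterozygous than in wild-type kidneys at embryonic day 15.5 (E15.5), so that comparison is given for them as a description with no test. RNA sequencing counts came from 33 libraries, which were read as runs of 24 specimens. These were 4 Six2 heterozygous (1 female, 3 male) and 4 wild-type kidney specimens (1 female, 3 male) at E15.5, and 5 Six2 knockout (4 female, 1 male), 5 heterozygous (2 female, 3 male) and 6 wild-type (4 female, 2 male) embryos at E11.5. The labels name no strain or other agent, and no allele in words. Titles of some E15.5 libraries begin with GCE (heterozygous) or Cont (wild type), which is not explained in the sources used here. The labels also do not say whether a specimen is 1 animal or a pool. Each test below hence measures the spread between specimens, which may in part be technical.

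Six2 is a homeodomain transcription factor that keeps nephron progenitors in an undifferentiated, self-renewing state. The 10 genes belong to no single pathway. Of these, 3 encode proteins of the cell surface: Pcdh8 is a delta protocadherin that acts in cell adhesion, Crb2 is a Crumbs protein of the apical membrane that takes part in epithelial polarity and is needed in podocytes, and Adra1a is the alpha-1A adrenergic receptor. Rbm24 is an RNA-binding regulator of alternative splicing known from muscle, while Klhdc8a is a kelch domain protein and Prune2 carries a BCH domain. Another 3 are enzymes of the secretory and lysosomal compartments: Man1a trims mannose from N-glycans in the Golgi, Pam amidates the C terminus of peptide hormones, and Naaa is a lysosomal amidase that breaks down N-acylethanolamines. Serinc5 is a multi-pass membrane protein whose human counterpart limits the infectivity of HIV-1.

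Counts per library totalled 10.82 to 42.07, in units of 1e+06. The share of counts on ribosomal RNA genes was 0.158% to 6.81%, and it was highest in batch 1 at E11.5. Six2 itself followed the labels: it averaged 0.473 ± 0.134 counts per 1e+06 counts (CPM) in knockout (SD, n = 5), 13.1 ± 2.88 in heterozygous (n = 5) and 25.0 ± 5.63 in wild-type embryos (n = 6) at E11.5, and 6.15 ± 0.342 in heterozygous against 11.7 ± 0.834 CPM in wild-type kidneys at E15.5 (n = 4 each). CPM values here share 1 scale over all 24 specimens. These are whole organs, so fewer cells of a type and less RNA per cell cannot be told apart.

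The 250 bases before the RefSeq start (GRCm38.p6) were found for 9 of the genes, and 3 of these windows are shown. Pcdh8 and Klhdc8a had the largest differences among the 10 at E15.5 and moved in opposite directions in knockouts, and Naaa holds the single match to the core of the homeodomain sites bound by Six2 and its relatives. Each is printed on the strand of its gene and ends at the base before the start, with motif matches in capitals.
Pcdh8 (chr14:79771313-79771562, minus strand): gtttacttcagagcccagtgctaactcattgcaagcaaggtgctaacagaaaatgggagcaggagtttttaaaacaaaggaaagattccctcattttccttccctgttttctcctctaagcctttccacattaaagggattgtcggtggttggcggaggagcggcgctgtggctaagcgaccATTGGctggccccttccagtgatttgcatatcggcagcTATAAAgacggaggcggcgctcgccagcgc
Klhdc8a (chr1:132298376-132298625, plus strand): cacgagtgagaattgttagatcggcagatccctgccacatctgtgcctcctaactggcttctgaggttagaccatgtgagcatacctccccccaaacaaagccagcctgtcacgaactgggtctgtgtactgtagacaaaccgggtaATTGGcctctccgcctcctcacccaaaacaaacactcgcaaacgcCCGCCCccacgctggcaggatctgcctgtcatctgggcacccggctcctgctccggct
Naaa (chr5:92278182-92278431, minus strand): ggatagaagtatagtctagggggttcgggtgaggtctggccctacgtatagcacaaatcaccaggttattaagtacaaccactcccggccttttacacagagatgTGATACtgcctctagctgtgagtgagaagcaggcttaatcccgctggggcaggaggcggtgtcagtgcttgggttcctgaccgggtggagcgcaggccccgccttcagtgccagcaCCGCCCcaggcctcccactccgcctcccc

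Both strands were searched for 5 motifs. The Pcdh8 window holds a TATAAA 30 bases and a CCAAT, on the other strand, 68 bases before the start. The TATAAA motif was in 1 of the 9 windows, against 13.0% of 27025 promoters of the same length. GGGCGG, the GC box, was in 7 of 9 windows, against 32.9% of all promoters, and the Serinc5 window holds 6 of them. CCAAT was in 4 of 9, against 34.5%. TGATAC was in the Naaa window 145 bases before the start, against 4.68% of all promoters, and TCAGGTTTC, the MEF3 site bound by Six2 relatives, was in 0 of 9, against 0.403%. The median G and C content was 65.6% in the 9 windows and 52.0% in all promoters.

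In E15.5 heterozygous kidneys every one of the 10 genes stood above wild type with no overlap between the 4 and 4 specimens. The genes were chosen on this difference, and the share of all genes without overlap is not given here. Over all genes, edgeR's quasi-likelihood test with Benjamini-Hochberg adjustment called 38 of 18244 genes higher (0.208%) and 66 lower (0.362%), and the 10 genes are among the 38 by choice. Pcdh8 differed most. It had 7.86, 8.38, 8.44 and 9.76 CPM in heterozygous kidneys, against 4.12, 3.89, 3.55 and 3.67 CPM in wild-type kidneys, a log2 fold change of 1.16 ± 0.07 (SE). Its lowest heterozygous specimen stood well above its highest wild-type specimen.

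The other surface proteins differed less. Adra1a had 5.47, 5.15, 5.49 and 6.06 CPM in heterozygous kidneys, against 3.53, 3.69, 3.56 and 3.11 in wild-type kidneys (log2 0.67 ± 0.07). Crb2 had 27.0, 28.0, 25.8 and 27.6 CPM in heterozygous kidneys, against 22.9, 24.5, 22.04 and 22.9 in wild-type kidneys (log2 0.23 ± 0.04). For Crb2 the gap between the groups was wider than the SD of either group and narrower than the range of either.

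Of the intracellular proteins, the splicing regulator Rbm24 had 7.04, 6.64, 6.57 and 7.20 CPM in heterozygous kidneys, against 4.89, 4.14, 5.01 and 4.69 in wild-type kidneys (log2 0.54 ± 0.07). Klhdc8a had 7.61, 8.34, 7.59 and 6.98 CPM in heterozygous kidneys, against 4.70, 4.47, 4.72 and 4.89 in wild-type kidneys (log2 0.69 ± 0.06). Prune2 had 6.39, 5.42, 5.84 and 6.08 CPM in heterozygous kidneys, against 3.33, 3.71, 3.55 and 4.05 in wild-type kidneys (log2 0.69 ± 0.08). In these 3 genes the lowest heterozygous value exceeded the highest wild-type value by more than the SD of either group.

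The enzymes and Serinc5, with Crb2, had the 5 smallest differences. Naaa had 27.6, 27.3, 26.5 and 27.4 CPM in heterozygous kidneys, against 22.5, 21.7, 21.8 and 22.7 in wild-type kidneys (log2 0.29 ± 0.03). Man1a had 77.1, 78.2, 75.6 and 77.4 CPM in heterozygous kidneys, against 69.5, 67.3, 65.9 and 66.5 in wild-type kidneys (log2 0.19 ± 0.02). The specimens of each genotype lay close together for both enzymes. Pam had 123.5, 119.2, 118.8 and 116.7 CPM in heterozygous kidneys, against 110.7, 106.2, 106.4 and 106.8 in wild-type kidneys (log2 0.15 ± 0.02). Serinc5 had 91.9, 90.2, 90.8 and 94.3 CPM in heterozygous kidneys, against 83.7, 87.9, 83.4 and 82.8 in wild-type kidneys (log2 0.11 ± 0.02). In both, 1 wild-type specimen came nearer to the heterozygous ones than the others did.

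**Figure D1:**
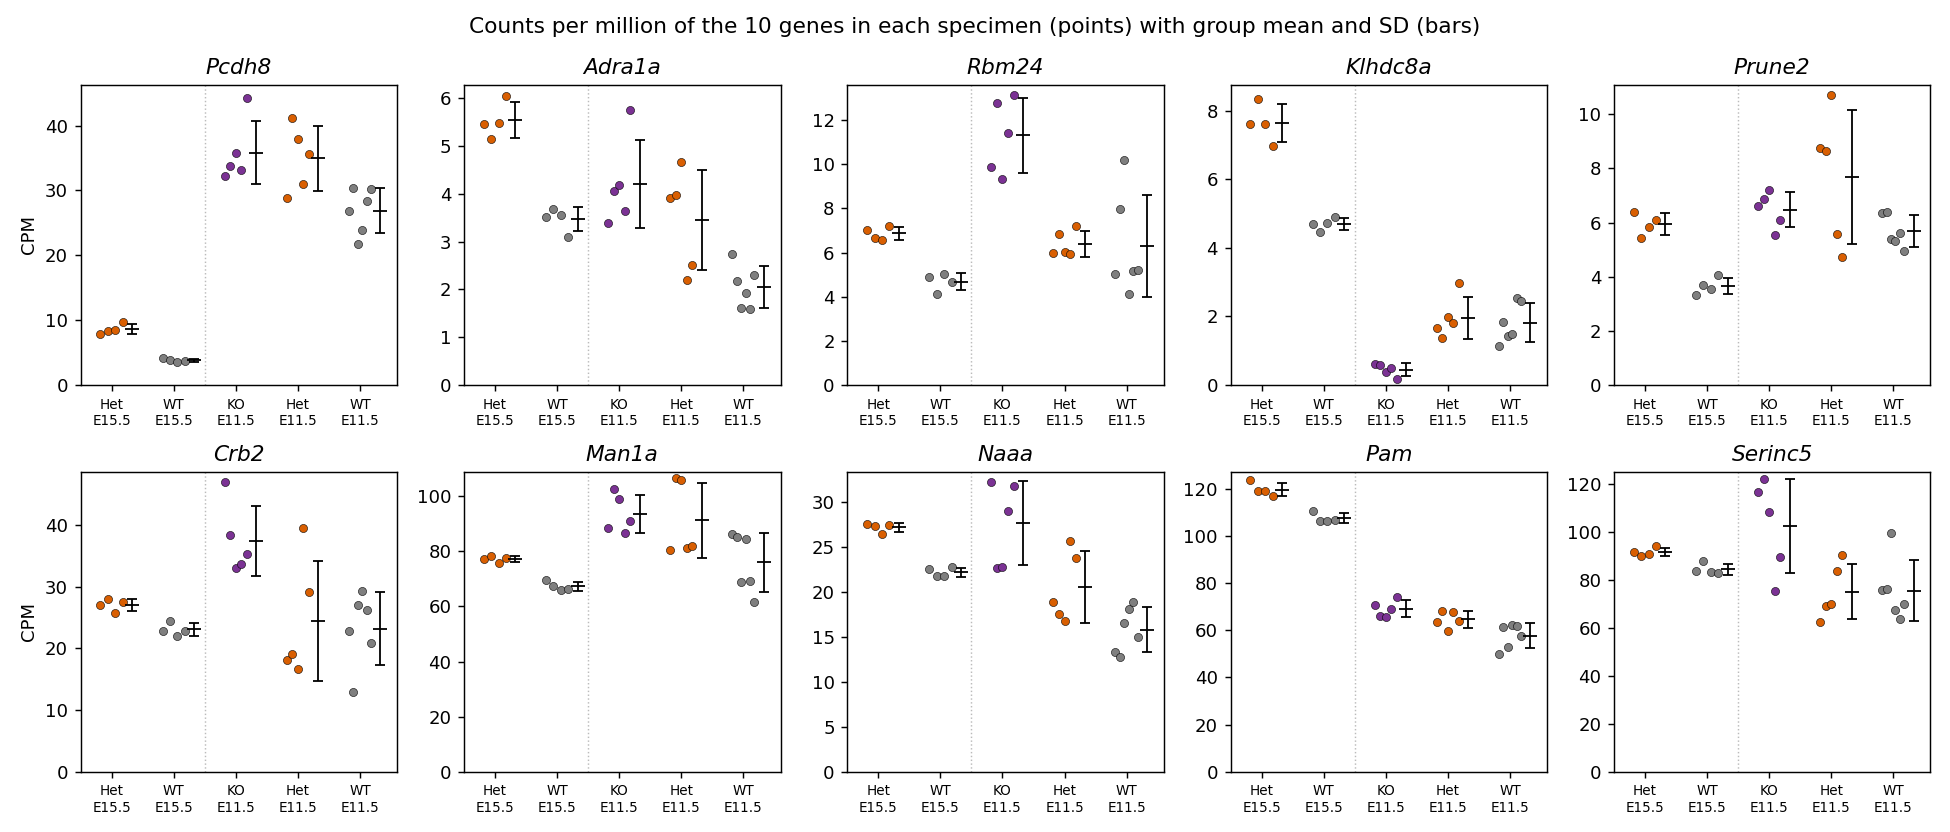
CPM (linear axis from 0) of each of the 10 genes in every specimen, in E15.5 heterozygous and wild-type kidneys and E11.5 knockout, heterozygous and wild-type embryos; points are specimens, bars are mean ± SD (n = 4, 4, 5, 5 and 6). At E15.5 the groups do not overlap for any of the 10 genes, and Klhdc8a is lowest in knockouts.

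Each E15.5 specimen was sequenced in both batches. The genes were chosen on these same runs, so the batches are no independent repeat of the comparison. In batch 1 and in batch 2 alike, the heterozygous and wild-type runs did not overlap for 10 of the 10 genes. The share of all genes without overlap in a batch is not given here. The median log2 fold change over the 10 was 0.41 with runs summed, 0.39 in batch 1 and 0.44 in batch 2, beside 0.00 over all genes tested. In all, 2 genes lay more than 1 SE from their summed value in 1 batch: in batch 2 alone Prune2 had a log2 fold change of 0.86 and Serinc5 one of 0.07.

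Per kilobase of counted gene length, wild-type E15.5 levels ran from 15.9 CPM per kb for Serinc5, through 9.02 for Pam, 7.42 for Man1a, 5.94 for Naaa, 3.44 for Crb2, 1.45 for Rbm24 and 1.099 for Klhdc8a, to 0.839 for Pcdh8, 0.426 for Adra1a and 0.292 for Prune2. The 5 genes with the lowest levels on this scale are the 5 with the largest fold changes. The genes were chosen on this same contrast, in which the SE was 0.06 to 0.08 for these 5 and at most 0.04 for the others. A smaller fold could thus pass in the latter, and this order is not a result about the genes. Ranked by fold among the 38 genes called higher at E15.5, the 10 genes held places 2 to 37. The smallest of them, Serinc5 (0.11), stood between 2 genes that are not among the 10, Ablim1 (0.12) and Epha4 (0.11). In first place was Esr1 (1.20 ± 0.05), the estrogen receptor alpha gene.

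Markers of kidney cell types were set beside these differences. Of 12 nephron progenitor markers, Eya1 was called higher and Six2, Cited1, Meox1, Crym and Spock2 lower in E15.5 heterozygous kidneys. Their summed level was 767 to 827 CPM in heterozygous and 864 to 905 CPM in wild-type kidneys. None of 12 podocyte, 12 early nephron, 12 renal stroma or 7 neural markers was called. Summed podocyte markers overlapped, at 839 to 920 CPM in heterozygous and 838 to 880 in wild-type kidneys, while those of 3 other cell types were higher in heterozygous kidneys without overlap. Early nephron markers summed to 1196 to 1232 CPM in heterozygous and 1100 to 1173 CPM in wild-type kidneys, and loop of Henle and distal tubule markers to 538 to 587 against 512 to 532 CPM, with none of 9 called. Erythroid markers summed to 951 to 1176 CPM in heterozygous and 873 to 943 CPM in wild-type kidneys, and the globin gene Hbb-bs was called higher. The cartilage collagen gene Col2a1 was called lower. The part of cell makeup in the 10 genes' differences was not tested.

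At E11.5, with embryos that took no part in the rule, 8 of the 10 were called higher in knockout than in wild-type embryos, Klhdc8a was called lower, and Prune2 was not called. Over all 16141 genes tested 494 were called higher (3.06%) and 650 lower (4.03%). The median log2 fold change was 0.41 over the 10 genes and -0.00 over all genes. This count is no independent support for the 10 as a group, because they were picked from the 38 genes with results of these data known. Of the 28 other genes called higher at E15.5, 27 were tested at E11.5, and of these 2 were higher and 7 lower in knockouts, with a median of 0.00.

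**Figure D2:**
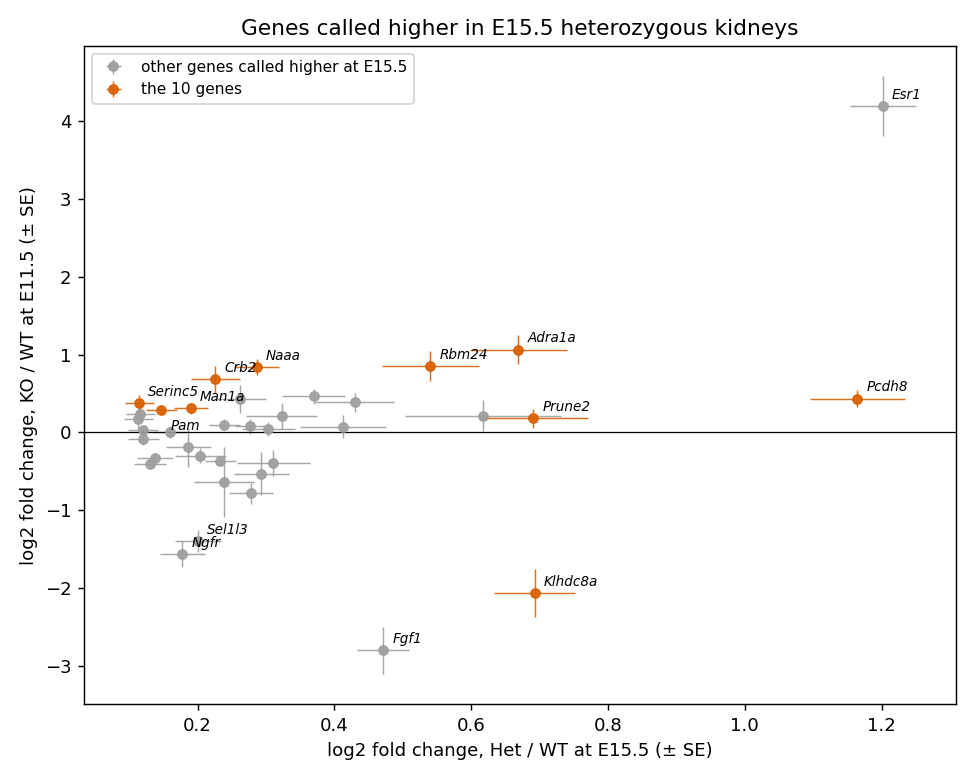
Log2 fold change (± SE) of knockout over wild type at E11.5 (vertical) against heterozygous over wild type at E15.5 (horizontal) for the 37 genes called higher at E15.5 and tested at both stages; the 10 genes are in orange. Of the 10, 8 lie above 0 with a call in knockouts, while the other genes lie on both sides of 0 and include Esr1 at the top and Fgf1 at the bottom.

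Among the surface proteins, Adra1a had 3.38, 4.07, 4.19, 3.65 and 5.75 CPM in knockouts, against a lowest, median and highest of 1.60, 2.05 and 2.74 CPM in wild-type embryos. Each knockout stood above each wild-type embryo, and the log2 fold change was 1.06 ± 0.18 (edgeR adjusted p = 0.00151). Crb2 had 46.9, 38.4, 33.0, 33.7 and 35.2 CPM in knockouts, against a lowest, median and highest of 12.9, 24.5 and 29.3 in wild-type embryos, with no overlap and a log2 fold change of 0.68 ± 0.17 (edgeR adjusted p = 0.0231). Pcdh8 had 32.2, 33.8, 35.8, 33.2 and 44.2 CPM in knockouts, against a lowest, median and highest of 21.7, 27.6 and 30.4 in wild-type embryos. Its groups did not overlap either, and its log2 fold change was 0.43 ± 0.11 (edgeR adjusted p = 0.0205).

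Of the enzymes, Naaa changed most: it had 32.2, 22.7, 22.8, 29.0 and 31.8 CPM in knockouts, against a lowest, median and highest of 12.7, 15.8 and 18.9 in wild-type embryos (log2 0.84 ± 0.10, edgeR adjusted p = 7.09e-05). Man1a (0.31 ± 0.07, edgeR adjusted p = 0.0177) and Pam (0.29 ± 0.05, edgeR adjusted p = 0.00234) rose by less, also with no overlap between knockout and wild-type embryos. For Man1a the groups nearly met, with 86.66 CPM in the lowest knockout and 86.25 CPM in the highest wild-type embryo. The share of all genes without overlap between these groups is not given here. Rbm24 had 9.89, 12.8, 9.31, 11.4 and 13.1 CPM in knockouts, against a lowest, median and highest of 4.14, 5.18 and 10.2 in wild-type embryos (log2 0.85 ± 0.19, edgeR adjusted p = 0.0105). One wild-type embryo of the 6 reached into the knockout range for Rbm24. Serinc5 rose with overlapping groups, at 75.3 to 122.3 CPM in knockouts and 63.7 to 99.6 in wild-type embryos (log2 0.38 ± 0.10, edgeR adjusted p = 0.0372). Its call was lost in 7 of 11 fits that left out 1 embryo, with an adjusted p of up to 0.218, while Adra1a, Naaa, Pam and Klhdc8a kept theirs in all 11.

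Klhdc8a went the other way in knockouts. It had 0.615, 0.581, 0.370, 0.505 and 0.174 CPM, which is 3 to 12 counts an embryo, against 1.15 to 2.53 CPM, or 13 to 52 counts, in wild-type embryos. The groups did not overlap and the log2 fold change was -2.06 ± 0.31 (edgeR adjusted p = 0.000421). Prune2, at 5.55 to 7.21 CPM in knockouts and 4.96 to 6.41 in wild-type embryos, did not pass the test (0.18 ± 0.12, edgeR adjusted p = 0.444).

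Several of these calls rest on the model. Without the batch term, which is the replicate block because the replicate numbers of the titles equal the batch, 5 of the 10 genes were called and Pcdh8, Crb2, Man1a and Serinc5 were not. The count was also 5 without knockout replicate 5, and it was 7 with sex left out. Ribosomal RNA took 0.831% to 3.86% of the counts in batch 1 knockout libraries and 5.61% to 5.89% in batch 1 wild-type libraries. Leaving out libraries above 5% therefore removed all 3 batch 1 wild-type libraries and no knockout library, and 4 genes were then called; the part of RNA quality in the differences was not tested. Within batch 1 alone Pam was called and within batch 2 alone Rbm24, Naaa and Klhdc8a. The log2 fold changes of the 8 genes called higher were positive in both batches, from 0.32 to 0.87 in batch 1 and from 0.24 to 1.36 in batch 2. Klhdc8a was at -1.31 ± 0.38 in batch 1 and -2.54 ± 0.42 in batch 2. With the title prefix as the block in place of batch, Naaa and Pam were called and the others were not.

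In the same knockouts 11 of 12 nephron progenitor markers were called lower, and their summed level was 294 to 379 CPM in knockout and 764 to 1180 CPM in wild-type embryos. Of 9 macrophage markers 8 were called higher, at 101 to 222 CPM in knockout and 68.3 to 135 CPM in wild-type embryos. Of 11 early nephron markers 4 were higher, Wnt4, Pax8, Ccnd1 and Cdh6. Only 3 of the 10 genes listed as loop and distal markers could be tested, Calb1, Sim1 and Mal, and these were higher. Of 8 ureteric bud trunk and collecting duct markers 3 were higher, Wnt9b, Gata3 and Tfcp2l1, with summed levels of 140 to 197 CPM in knockout and 71.5 to 237 CPM in wild-type embryos, and 5 of 8 ureteric bud tip markers were lower. One of 12 neural markers was called, with summed levels of 181 to 279 CPM in knockout and 94.9 to 252 CPM in wild-type embryos. Among 10 podocyte markers tested, Plce1 was higher and Foxc2 lower. Nphs1, which encodes nephrin of the slit diaphragm, was at 0 counts in all knockouts and also in all heterozygous embryos at E11.5. The part of these cell types in the 10 genes' changes was not tested.

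In heterozygous embryos at E11.5 none of the 10 genes was called against wild type, by edgeR or by DESeq2. Over all genes 2 were called higher (0.0124%) and 9 lower (0.0558%) by edgeR. The 10 log2 fold changes were all positive, with a median of 0.21, against a median of 0.01 and 53.1% positive over all genes. Of the 10, 6 had an unadjusted p under 0.05, as did 1332 of 16141 genes, and their adjusted p ran from 0.38 to 0.965. This comparison and the knockout comparison share the wild-type embryos. The 10 were also picked with results of these data known, so these counts are no independent support for them as a group. The heterozygous differences were 0.58 ± 0.19 for Adra1a, 0.39 ± 0.11 for Naaa, 0.33 ± 0.11 for Pcdh8, 0.31 ± 0.12 for Prune2, 0.22 ± 0.08 for Man1a and 0.14 ± 0.05 for Pam. They were 0.19 ± 0.25 for Klhdc8a, 0.13 ± 0.17 for Crb2, 0.06 ± 0.11 for Serinc5 and 0.04 ± 0.20 for Rbm24, and the groups overlapped for every one of the 10 genes. The signs of Rbm24, Klhdc8a and Serinc5 turn negative within batch 1 alone.

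The heterozygous embryos were themselves split for 5 of the genes. Prune2 had 8.74, 8.62 and 10.7 CPM in the 3 male heterozygous embryos and 5.59 and 4.74 in the 2 female ones, and Adra1a had 3.92, 3.98 and 4.67 in the males and 2.20 and 2.51 in the females. Crb2 ran the other way, with 18.1, 19.1 and 16.6 CPM in the males and 39.4 and 29.2 in the females, as did Naaa, with 18.9, 17.5 and 16.8 in the males and 25.7 and 23.8 in the females. Serinc5 had 62.7, 69.2 and 69.8 CPM in the males and 83.9 and 90.7 in the females. The males were run in batch 1, 1 of them in both batches, and the females in batch 2 alone. The title prefixes of the males and the females differed too. Sex, batch and prefix hence cannot be told apart in this group. This split was noticed after the values were seen, and no test was made of it. The share of all genes split in this way is not given here.

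Knockout against heterozygous embryos called Rbm24 (0.81 ± 0.20, edgeR adjusted p = 0.0372) and Naaa (0.45 ± 0.11, edgeR adjusted p = 0.036) higher and Klhdc8a lower (-2.26 ± 0.32, edgeR adjusted p = 0.000642). Over all genes 144 were called higher (0.892%) and 451 lower (2.79%). Rbm24 had 9.31 to 13.1 CPM in knockout and 5.93 to 7.20 CPM in heterozygous embryos, with no overlap. Klhdc8a had at most 0.615 CPM in knockouts and at least 1.37 CPM in heterozygous embryos. The call for Rbm24 was lost in 8 of 10 fits that left out 1 embryo and that for Naaa in 5, while Klhdc8a kept its call in all 10. Without the replicate block Klhdc8a alone was called, with adjusted p = 0.111 for Rbm24 and 0.359 for Naaa in edgeR, and within either batch alone none was.

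**Figure D3:**
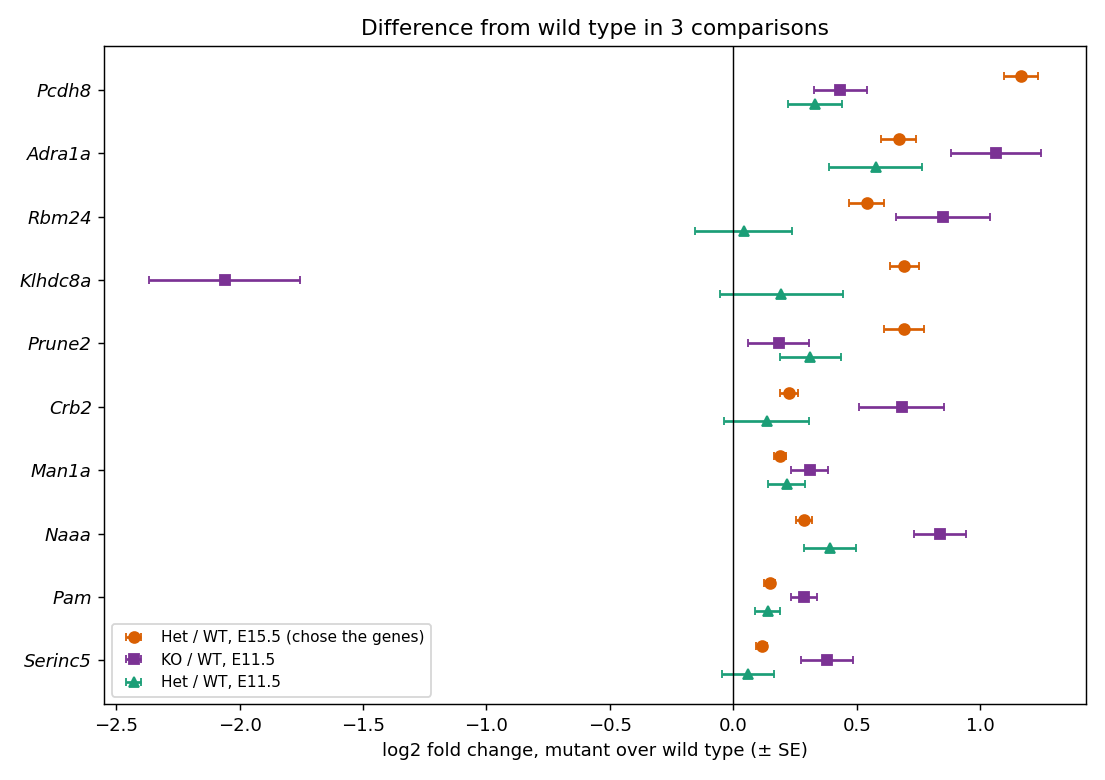
Log2 fold change (± SE) of each gene in heterozygous over wild-type kidneys at E15.5 (orange circles, the comparison that chose the genes), knockout over wild-type embryos (purple squares) and heterozygous over wild-type embryos at E11.5 (green triangles). Klhdc8a in knockouts, at -2.06, is the only value below 0.

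For Klhdc8a the 2 mutant comparisons thus differed in sign: it was 0.69 ± 0.06 higher on the log2 scale in E15.5 heterozygous kidneys and 2.06 ± 0.31 lower in E11.5 knockouts, while E11.5 heterozygous embryos overlapped wild type. Pcdh8 and Prune2 had larger fold changes in E15.5 heterozygous kidneys (1.16 and 0.69) than in knockouts (0.43 and 0.18). Smaller ones were seen for Naaa, Crb2 and Serinc5 (0.29, 0.23 and 0.11 against 0.84, 0.68 and 0.38). The same held for Adra1a, Rbm24, Man1a and Pam (0.67, 0.54, 0.19 and 0.15 against 1.06, 0.85, 0.31 and 0.29). The comparisons come from different stages and models, and no difference between them was tested.

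Between the stages the 10 genes took different courses. With heterozygous and wild-type kidneys given equal weight, 5 were called higher at E15.5 than at E11.5, 3 lower and 2 neither. The raised E15.5 heterozygous values that chose the genes enter this mean, so its calls and adjusted p are not independent of the choice. With wild-type kidneys only, 8 of the 10 genes kept direction and call, and 2 kept direction and lost the call. Over 17362 genes tested by edgeR 31.6% were called higher and 32.2% lower, so calls in either direction were common. Both batch numbers occur at both stages, and whether libraries of the 2 stages were prepared together is not given in the sources used here.

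Klhdc8a and Pam rose most. Klhdc8a averaged 7.63 ± 0.556 and 4.70 ± 0.174 CPM in E15.5 heterozygous and wild-type kidneys (n = 4 each), against 1.96 ± 0.608 (n = 5) and 1.81 ± 0.571 CPM (n = 6) in E11.5 heterozygous and wild-type embryos (SD), a log2 fold change of 1.73 ± 0.15 (edgeR adjusted p = 1.37e-09). Pam averaged 119.6 ± 2.86 and 107.5 ± 2.14 CPM at E15.5, against 64.6 ± 3.53 and 57.7 ± 5.20 CPM at E11.5 in the same order of genotypes, a log2 fold change of 0.87 ± 0.04 (edgeR adjusted p = 6.01e-14). Adra1a (0.68 ± 0.13), Naaa (0.47 ± 0.10) and Serinc5 (0.28 ± 0.09) were also called higher in this mean of both genotypes. In wild-type specimens alone these averaged 3.47, 22.2 and 84.5 CPM at E15.5, against 2.06, 15.8 and 75.6 CPM at E11.5. For Serinc5 the wild-type specimens of the stages overlapped.

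Pcdh8 fell steeply. It averaged 8.61 ± 0.812 and 3.81 ± 0.252 CPM in E15.5 heterozygous and wild-type kidneys (n = 4 each), against 34.9 ± 5.02 (n = 5) and 26.9 ± 3.49 CPM (n = 6) in E11.5 heterozygous and wild-type embryos (SD), a log2 fold change of -2.43 ± 0.09 (edgeR adjusted p = 3.96e-16). Its 5 groups hence ran from knockout, heterozygous and wild-type embryos at E11.5, of which neighbours overlapped, down to heterozygous and then wild-type kidneys at E15.5, with no overlap at those steps. Prune2 (-0.54 ± 0.11) and Man1a (-0.24 ± 0.07) were called lower. Rbm24 (-0.17 ± 0.13, edgeR adjusted p = 0.283) and Crb2 (0.18 ± 0.14, edgeR adjusted p = 0.249) were not called, and the mean of Rbm24 ran from 11.3 CPM in knockouts, where 1 wild-type embryo reached their range, to 4.68 CPM in E15.5 wild-type kidneys.

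**Figure D4:**
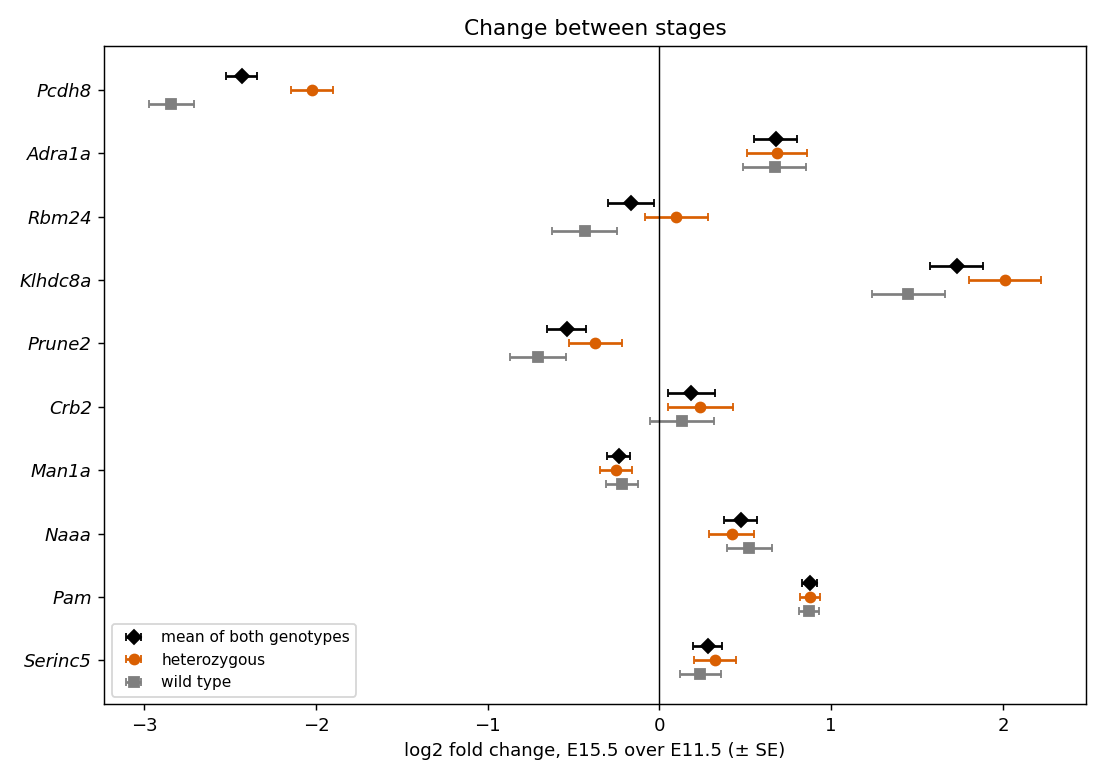
Log2 fold change (± SE) of E15.5 over E11.5 for each gene, as the mean of both genotypes (black diamonds) and in heterozygous (orange circles) and wild-type kidneys (grey squares) alone. Pcdh8 lies at -2.43 and Klhdc8a at 1.73, and Rbm24 is on opposite sides of 0 in the 2 genotypes.

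Genes of the families and pathways of the 10 were counted next, in 10 lists of 104 genes that exclude the 10 themselves. In E15.5 heterozygous kidneys 0 of 100 tested were called, against 0.208% of all genes higher and 0.362% lower. In E11.5 heterozygous embryos 0 of 98 were called, against 0.0124% and 0.0558% of all genes. At such low shares a count of 0 says little about these lists. The nearest relatives stood close to wild type at E15.5, for example Klhdc8b (-0.01 ± 0.04), Prune (0.01 ± 0.03), Man1a2 (0.05 ± 0.03) and Serinc3 (0.02 ± 0.03), while Pcdh19 was at 0.18 ± 0.06 and Adra1d at 0.17 ± 0.10 without a call. In knockouts 7 of 98 were called higher (7.14%) and 5 lower (5.1%), against 3.06% and 4.03% of all genes.

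Of 9 delta protocadherins 2 rose in knockouts, Pcdh19 (0.95 ± 0.12, edgeR adjusted p = 6.5e-05) and Pcdh7 (0.47 ± 0.10, edgeR adjusted p = 0.0103). Of 8 genes of N-acylethanolamine metabolism 3 rose beside Naaa: the cannabinoid receptor gene Cnr1 (0.84 ± 0.20), Abhd4, which acts in the making of N-acylethanolamines (0.37 ± 0.06), and the acid ceramidase gene Asah1 (0.20 ± 0.05). Faah, the other main enzyme that degrades N-acylethanolamines, did not pass (0.55 ± 0.17, edgeR adjusted p = 0.0676). Among 16 polarity genes Crb3 rose (0.63 ± 0.16) and Pard3 fell (-0.17 ± 0.04). Of 13 RNA-binding regulators 2 fell, Rbfox1 (-1.93 ± 0.28, edgeR adjusted p = 0.000388) and Rbfox2 (-0.20 ± 0.04), while Rbm38, the paralog of Rbm24, did not pass (-0.16 ± 0.12). The carboxypeptidase gene Cpe, which acts before Pam in prohormone processing, rose (0.31 ± 0.09), Klhdc10 fell (-0.17 ± 0.05) and Mgat4a, a branching enzyme of N-glycans, fell (-0.50 ± 0.10). None of 3 Serinc, 6 Prune and BCH or 6 adrenergic receptor genes tested was called. Between stages 46 of 100 were called higher (46%) and 24 lower (24%), against 31.6% and 32.2% of all genes.

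Between pairs of the 10 genes, correlations among specimens of a genotype took both signs. Once genotype, sex and batch were removed, the 45 pairs had a median Pearson correlation of -0.045 over the 16 E11.5 embryos, from -0.751 for Prune2 with Serinc5 to 0.763 for Crb2 with Naaa, and 21 pairs were positive. Over the 8 E15.5 specimens, with genotype and sex removed, the median was 0.0889, with 27 positive. These are descriptions over few points that share library and batch, with no test. No other gene pairs were set beside them, so they cannot show whether the 10 genes vary together. The genes whose log2 CPM most resembled the mean profile of the 10 over the 24 specimens were Rhou (r = 0.769), Magi3 (0.738), Pcdh19 (0.728), Gm5602 (0.701) and Scube3 (0.693). Pcdh19 averaged 32.7 ± 2.16 CPM in E15.5 heterozygous kidneys (SD, n = 4), against 28.7 ± 2.398 CPM in wild-type kidneys (n = 4), and 40.8 ± 2.48 CPM in knockout (n = 5), 36.5 ± 13.1 in heterozygous (n = 5) and 21.4 ± 3.55 CPM in wild-type embryos (n = 6) at E11.5. Over the E11.5 embryos with genotype, sex and batch removed, the nearest were instead Dek (0.86), Tnpo1 (0.834), Trmt10a (0.833), Cdk16 (0.829) and Bcdin3d (0.823).

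By the GENCODE vM21 annotation on mm10, all 10 are protein-coding genes. Pcdh8 lies at chr14:79766775-79771312 on the minus strand and Adra1a on the same chromosome at chr14:66635251-66771168. Rbm24 (chr13:46418434-46431095) and Serinc5 (chr13:92611091-92711947) share chromosome 13, and Klhdc8a (chr1:132298626-132307357) and Pam (chr1:97795114-98095646) share chromosome 1. Prune2 is at chr19:16956118-17223932, Crb2 at chr2:37776249-37799103, Man1a at chr10:53904785-54076609 and Naaa at chr5:92257659-92278170. The 3′ end of Crb2 overlaps Dennd1a on the opposite strand, which was counted too, and the antisense gene Gm9748 overlaps Pcdh8. The use of strand in counting is not given in the sources used here, so reads of Crb2 and Pcdh8 could include reads from those partners. Klhdc8a had as few as 3 counts in 1 embryo, and the other 9 genes had 27 to 7854 counts in each specimen.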

How the data were processed

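Whole-kidney RNA was sequenced by the authors in 33 libraries. The deposited values are raw counts per gene symbol, whole numbers with no normalization. STAR 2.4.0h1, featureCounts 1.4.6 and build mm10 are named per the submitters' processing notes. Parameters, annotation and strand use are not given in the sources used here. No column lacked a sample (0 left over).

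Runs with the same specimen label, genotype and sex were summed to 24 specimens. As a check, residual correlation paired the 2 runs of a specimen with each other in 8 of 8 E15.5 cases (0.165 to 0.54, at most 0.0895 across specimens). Tests used edgeR 4.0.16 under R 4.3.3 (filterByExpr, minimum count 10 and total 15, TMM, quasi-likelihood F test, Benjamini-Hochberg threshold 0.05 over all genes tested). Terms were genotype, sex and batch for E11.5 embryos, genotype and sex for E15.5 kidneys, and group and sex for the stage comparison. The E11.5 titles' replicate number is the batch, so the batch term is the replicate block. CPM used TMM-scaled library sizes, and the deposited gene length gave CPM per kb. DESeq2 1.42.0, other scaling, no filter, single batches and left-out specimens were alternatives. The fit was tested on simulated data. Intervals cover the spread between specimens only. Genes named were the 10, list genes that passed (up to 4 a list) or were paralogs, the 5 of most similar profile, and the neighbours of the smallest difference; Esr1 and Fgf1 were named after their values were seen. The 10 genes, the lists and the markers were chosen with earlier results of these data known.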

Additional observations from a re-analysis of the deposited data

Results flagged for a closer look

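In each of the 5 groups each of the 10 genes was examined for a single specimen far from the rest of its group, which gave 50 groups of values, and 2 held one. Chance alone gives such a specimen in about 1 in 20 groups. In wild-type kidneys at E15.5, specimen 1 had the highest Pam level, 110.7 CPM, while the next was 106.8 CPM. The gap was 0.861 of the whole range of the group, above the critical value of 0.829 for 4 specimens. Without that specimen the E15.5 difference of Pam was 0.16 on the log2 scale, against 0.15 with it. In wild-type embryos at E11.5, embryo 3 had the highest Serinc5 level, 99.58 CPM, while the next was 76.45 CPM, a gap of 0.645 of the range against a critical value of 0.625 for 6 embryos.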

How the results depend on the processing

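Of 400 values of single genes recomputed under alternatives other than left-out specimens, 340 kept direction and call, 47 kept direction and lost the call, 1 gained one (Crb2 in knockout against heterozygous embryos by DESeq2), 2 moved and 10 turned sign. Scaling by median ratio and no filter on low counts changed no call of the 10 genes. In knockout against wild-type embryos 9 of the 10 genes were called, 5 with no replicate block, 1 in batch 1 alone, 3 in batch 2 alone, 4 without libraries above 5% ribosomal RNA and 2 with the title prefix as block, and 5 to 9 when 1 embryo was left out. For knockout against heterozygous embryos the 3 called became 1 with no replicate block and 0 in batch 1 alone, in batch 2 alone and with the prefix, and 1 to 3 when 1 embryo was left out. Heterozygous against wild-type embryos gave 0 throughout. The stage comparison gave 8, with 6 to 8 under alternatives and 8 to 9 with a specimen left out. The E15.5 median of 0.41 ranged from 0.37 to 0.43 with a specimen left out. The cause of these changes was not tested, although single batches and left-out libraries also hold fewer samples.

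The turned signs were all of uncalled values: Prune2 in knockouts with the prefix (-0.025); against wild type in heterozygous embryos, Rbm24 (-0.40), Klhdc8a (-0.047) and Serinc5 (-0.16) in batch 1 alone and Klhdc8a in batch 2 alone (-0.034) and without ribosomal RNA-rich libraries (-0.057); in knockout against heterozygous embryos, Adra1a in batch 1 alone (-0.071) and Man1a with the prefix (-0.12); and between stages Rbm24 without ribosomal RNA-rich libraries (0.0054) and in heterozygous kidneys only (0.10). With 1 embryo left out, the heterozygous differences ranged from -0.11 to 0.199 for Rbm24, -0.028 to 0.358 for Crb2 and -0.026 to 0.108 for Serinc5, and that of Pcdh8 between knockout and heterozygous embryos from -0.031 to 0.155.

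Over all genes, the 1144 called in knockout against wild-type embryos became 439 with no replicate block, 265 and 168 in single batches, 462 without ribosomal RNA-rich libraries, 492 with the prefix and 694 without knockout replicate 5. The 11 called in heterozygous embryos became 32 with no filter, 43 by DESeq2, 1 with no replicate block, 0 and 2 in single batches and 2 without ribosomal RNA-rich libraries. The 595 called between knockout and heterozygous embryos became 1015 by DESeq2, 154 with no replicate block, 7 and 56 in single batches, and as few as 219 with 1 embryo left out. The 104 called at E15.5 became 43 in batch 2 alone and 66 to 79 with a specimen left out. Depth limits Klhdc8a in knockouts, at 3 to 12 counts.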
